A study of Rattus norvegicus with 12 samples.

Results

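The comparison set 4 libraries from rat liver cells co-cultured with hAMSC (numbered 7, 8, 15 and 16) against 4 libraries from the same kind of cells given vehicle (numbered 17, 18, 19 and 20), 8 of the 12 libraries of the series. The remaining 4 libraries came from co-culture with hAEC and entered the fit to estimate the spread. According to the labels, the starting material was primary hepatic stellate cells. They were taken by a density gradient from cirrhotic livers of rats that had breathed CCl4 (carbon tetrachloride, a liver toxin), so that every group, vehicle included, carried the same injury. For 24 h, 15000 viable hAMSC or hAEC per Transwell insert shared the medium with the rat cells across a porous membrane. The labels do not spell out hAMSC and hAEC; in the field these abbreviations usually stand for mesenchymal stromal and epithelial cells of the human amnion. Neither the strain, sex and age of the rats nor the make-up of the vehicle is given, and it is not stated if replicate libraries stem from different animals, pools of animals or parallel cultures. The p-values therefore cover only the scatter among these libraries, and that scatter may be technical.

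The 12 libraries fell into 2 sets that the labels do not mention. Set A held hAMSC 7 and 8 with vehicle 17 and 18, and set B held hAMSC 15 and 16 with vehicle 19 and 20, besides 2 hAEC libraries each. The sets were chosen by the expression values themselves, not by the labels: the first principal component of the 2000 most variable genes separated them and held 60.9% of the variance, against 5.84% for the second. Differences in level between the sets are therefore given only as a description; whether the effect of hAMSC differed between them was tested, since the sets were not chosen by that effect. Because each set holds 2 libraries of each group, the difference between hAMSC and vehicle was estimated with the set as a block, and what the sets might stand for (rats, isolations or runs) cannot be told apart.

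Many of the genes below act in macrophages. Macrophages of the liver clear haemoglobin, modified lipoproteins and antibody-coated particles through surface receptors such as CD163, the macrophage scavenger receptor MSR1 and Fc receptors. They restrain their own activation through inhibitory receptors such as CD200R1, whose ligand is CD200. Haem released inside them is broken down by haem oxygenase, and the transcription factor NRF2 switches on antioxidant and detoxifying enzymes such as NQO1 and the glutathione transferases. Mesenchymal stromal cells are known for secreted factors that shift macrophages towards a scavenging, less inflammatory state.

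Total expected counts per library ran from 27382724 to 34922211 over the 12 libraries. Squared differences between libraries of the same group and set were 7.69 to 10.5 times those of counting error alone (chi-square per degree of freedom). The defining markers of macrophages were higher than most of those of stellate cells, the type the label names. All 18 macrophage markers exceeded 10 CPM in each of the 8 hAMSC and vehicle libraries, while 20 of 23 stellate and myofibroblast markers were below 10 CPM in each of them. Gpnmb lay between 14010 and 26680 CPM (expected counts scaled to the library total), Csf1r between 1584 and 2982 CPM, Cd68 between 1525 and 1680 CPM and Clec4f, a Kupffer cell gene, between 735 and 1030 CPM. The stellate cell genes Acta2 (0.803 to 2.53 CPM), Des (0.172 to 1.48 CPM), Pdgfrb (1.23 to 2.53 CPM) and Col1a1 (0.660 to 5.20 CPM) were among the 20, and Lrat was at 0 in at least 1 library and reached 0.370 CPM. The other 3 were Reln (8.44 to 92.2 CPM), Hgf (20.8 to 61.1 CPM) and Sparc (12.9 to 25.3 CPM). The summed level of 18 macrophage markers was 30580 to 31580 CPM in hAMSC against 28830 to 30790 CPM in vehicle in set A, and 55520 to 56260 against 55230 to 58020 CPM in set B. For the 23 stellate and myofibroblast markers, the sum was 110 to 135 CPM in hAMSC against 141 to 155 CPM in vehicle in set A. In set B it was 105 to 111 against 108 to 109 CPM. Of the 17 tested, 13 had a log2 fold change below 0 (median -0.21) and 4 above, and none was called. In bulk RNA, fewer cells of a type and less RNA per cell cannot be told apart.

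Of 13976 genes tested, 19 rose with hAMSC (0.136%) and 10 fell (0.0716%), together 29 genes or 0.207%, at an adjusted p below 0.05 (edgeR quasi-likelihood test, Benjamini-Hochberg adjustment). A further look at unadjusted p-values found 1331 genes below 0.05. The changes were small: the absolute log2 fold changes of the 29 genes lay between 0.20 and 0.61, at mean levels from 23.1 to 1058 CPM. All 29 had the same direction in set A and in set B, where 50.7% of all tested genes had one sign in both. All 29 also had both hAMSC libraries beyond both vehicle libraries within each set. Over all tested genes that held for 3.91% in the upward and 4.52% in the downward direction, or 8.44% in all; since both criteria draw on the values behind the calls, they describe the called genes and do not support them. The receptor Cd163 led the rises and the Fc receptor-like gene Fcrl2 the falls. At the border of the threshold, Man1a1 lay just inside (log2 fold change 0.25, adjusted p = 0.0484) and Sod2, mitochondrial superoxide dismutase, just outside (0.24, adjusted p = 0.0503).

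**Figure D1:**
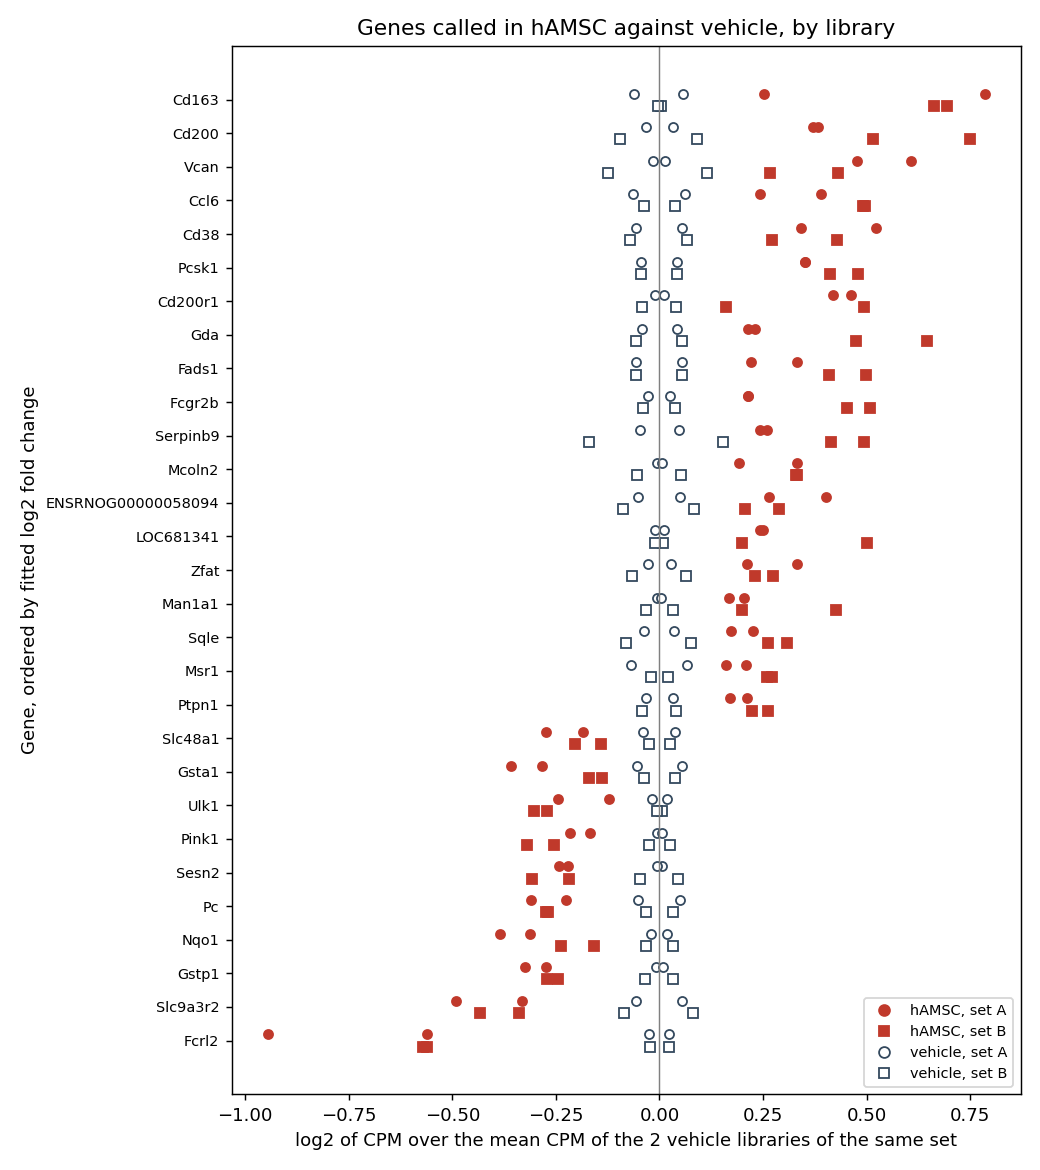
Each row is 1 of the 29 called genes; the horizontal axis is the log2 of the CPM in a library over the mean CPM of the 2 vehicle libraries of the same set. Filled marks are hAMSC libraries and open marks vehicle libraries, circles set A and squares set B; within each set the hAMSC marks lie to one side of the vehicle marks for all 29 genes.

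Several of the called genes encode surface proteins. The largest rise was that of Cd163, the receptor that takes up haemoglobin bound to haptoglobin. It was measured at 123, 178, 138 and 135 CPM in hAMSC 7, 8, 15 and 16, and at 108, 99.1, 85.5 and 85.1 CPM in vehicle 17, 18, 19 and 20. The 4 hAMSC libraries were all above the 4 vehicle libraries, in both sets, with hAMSC 8 the highest. The rise was 1.53-fold (log2 fold change 0.61, SE 0.090, adjusted p = 0.0279), 0.54 on the log2 scale within set A and 0.68 within set B. Msr1, the class A scavenger receptor, stood at 1347, 1303, 652 and 648 CPM with hAMSC and 1221, 1111, 533 and 548 CPM with vehicle. Its groups overlapped when the sets were ignored and separated within each set, for a rise of 0.22 (SE 0.039, adjusted p = 0.0279).

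Both partners of the CD200 axis rose. Cd200r1, the inhibitory receptor on myeloid cells, was at 106, 109, 51.4 and 64.7 CPM with hAMSC and at 78.5, 79.6, 44.6 and 47.3 CPM with vehicle. Its log2 fold change was 0.39 (SE 0.066, adjusted p = 0.0279). Cd200, which encodes the ligand, was at 57.9, 58.3, 19.8 and 23.3 CPM with hAMSC and at 45.8, 43.7, 14.8 and 13.0 CPM with vehicle, a rise of 0.50 on the log2 scale (SE 0.066, adjusted p = 0.00486). Within each set both hAMSC libraries were above both vehicle libraries, with log2 fold changes of 0.38 in set A and 0.64 in set B.

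**Figure D2:**
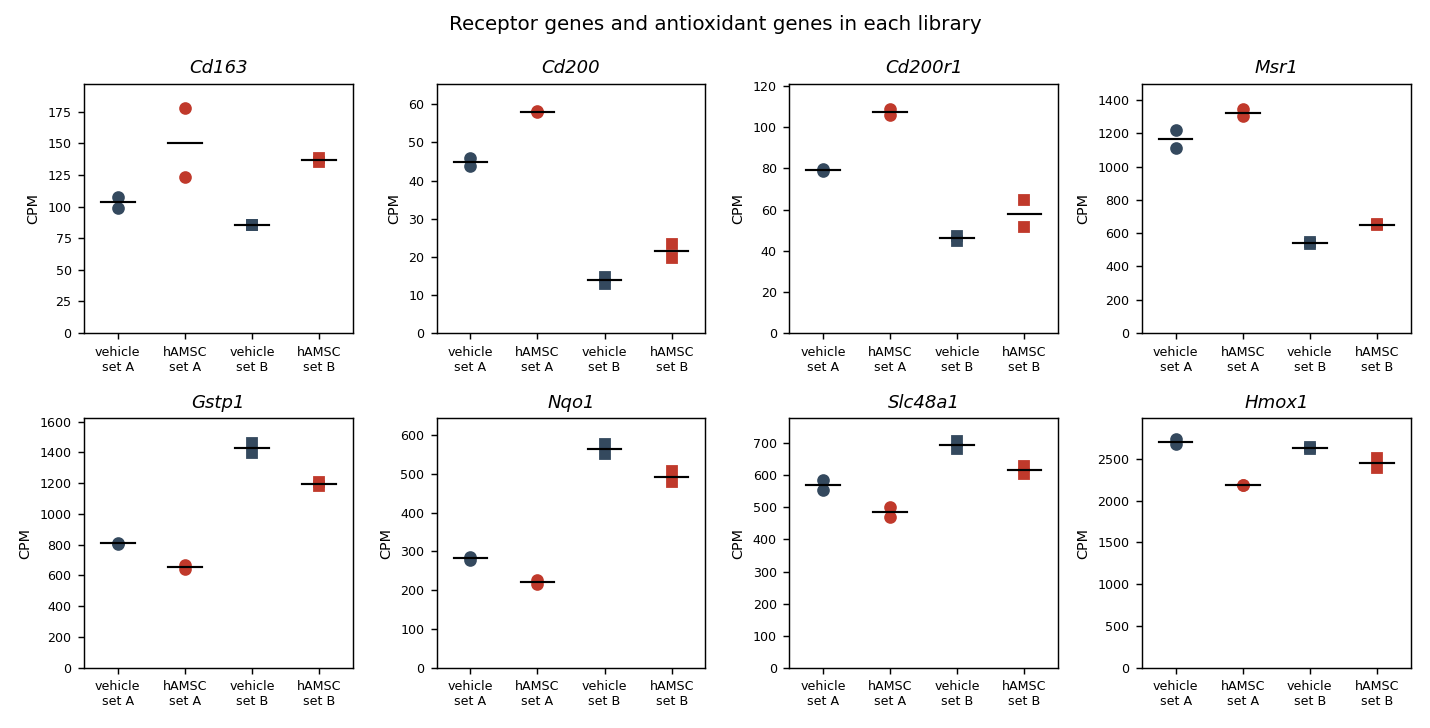
CPM (vertical axis, from 0) of 4 receptor-axis genes and 4 antioxidant or haem genes in each of the 8 libraries, by group and set; points are libraries and bars the mean of 2. Cd163, Cd200, Cd200r1 and Msr1 are higher with hAMSC in both sets, and Gstp1, Nqo1 and Slc48a1 lower; Hmox1 is lower in both sets without passing the test.

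Fcgr2b, the inhibitory Fc receptor for IgG, which macrophages and liver sinusoidal endothelial cells both express, was at 1931, 1932, 377 and 363 CPM with hAMSC and at 1696, 1634, 258 and 272 CPM with vehicle. Its rise was 0.35 (SE 0.053, adjusted p = 0.0133), 0.21 within set A and 0.48 within set B. Cd38, an enzyme that consumes NAD, was at 32.8, 37.2, 16.8 and 18.7 CPM with hAMSC and at 26.9, 24.9, 13.2 and 14.5 CPM with vehicle, a rise of 0.40 (SE 0.069, adjusted p = 0.0279). Fcrl2, a member of the Fc receptor-like family, went the other way. In set B it was at 162 and 163 CPM with hAMSC and at 244 and 236 CPM with vehicle, and in set A all 4 libraries were below 1 CPM (0.602 and 0.461 with hAMSC, 0.903 and 0.873 with vehicle). The fall of 0.58 on the log2 scale (SE 0.071, adjusted p = 0.00206) thus rests mostly on set B. Fc receptor genes have close relatives, and reads that fit several of them were divided by the estimation of expected counts, which the tests do not carry.

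Leaving out 1 hAMSC or vehicle library at a time kept the calls of Cd200 (log2 fold change 0.43 to 0.54, adjusted p up to 0.0232) and Fcrl2 in all 8 fits. The calls of Cd163 (0.52 to 0.72, adjusted p up to 0.129) and Fcgr2b (0.30 to 0.39, adjusted p up to 0.0705) were lost without hAMSC 16, vehicle 18, vehicle 19 or vehicle 20. That of Msr1 (0.20 to 0.27, adjusted p up to 0.110) was lost without any of these or hAMSC 8, and that of Cd200r1 (0.35 to 0.46, adjusted p up to 0.117) without any of these, hAMSC 8 or vehicle 17. For Cd38 (0.35 to 0.44, adjusted p up to 0.113) the call was lost without hAMSC 8, hAMSC 16, vehicle 17, vehicle 18 or vehicle 19.

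The gene lists here and below were drawn up with earlier results of these data known. Their counts, set beside the shares of all tested genes, therefore describe the lists only. Among 23 tested genes of alternative macrophage activation, 3 rose (Cd163, Cd200r1 and Msr1), where 0.136% of all tested genes were called higher, none fell and 20 did not pass. The list's median log2 fold change was 0.04, with 15 of 23 members above 0, against 48.9% of all tested genes and a median of -0.0026 over them. Mrc1, the mannose receptor, had a log2 fold change of 0.12 (adjusted p = 0.287), Clec10a, a lectin of alternatively activated macrophages, 0.39 (adjusted p = 0.127), and Arg1, arginase, -0.27 (adjusted p = 0.587). Of 21 scavenger and efferocytosis receptors, Cd163 and Msr1 rose (against the same 0.136%), none fell, and the median was 0.03. Among 31 inflammatory cytokines, chemokines and NF-kB targets none passed; 13 were above 0 and the median was -0.01.

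Vcan, Pcsk1, Ccl6 and Serpinb9 rose as well. Vcan, the matrix proteoglycan versican, was at 93.0, 84.9, 17.8 and 15.8 CPM with hAMSC and at 60.5, 61.7, 12.1 and 14.3 CPM with vehicle. Its rise was 0.46 (SE 0.064, adjusted p = 0.00611), 0.54 in set A and 0.35 in set B. Pcsk1, a convertase that cleaves prohormones, was at 246, 246, 27.4 and 26.1 CPM with hAMSC and at 198, 187, 19.1 and 20.2 CPM with vehicle. It had the smallest p of all 13976 genes (log2 fold change 0.39, SE 0.044, adjusted p = 0.00179).

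Ccl6, a chemokine of macrophages and neutrophils, was at 1575, 1745, 116 and 116 CPM with hAMSC and at 1389, 1274, 84.7 and 80.4 CPM with vehicle, a rise of 0.40 (SE 0.063, adjusted p = 0.0279). Its level was far higher in set A than in set B, and the hAMSC libraries were above vehicle within each. Serpinb9, an inhibitor of granzyme B, rose by 0.34 (SE 0.060, adjusted p = 0.0303). The calls of Vcan (0.41 to 0.51) and Pcsk1 (0.37 to 0.42) stood in all 8 fits that left out a library. That of Ccl6 (0.36 to 0.46, adjusted p up to 0.112) was lost without hAMSC 8, hAMSC 16, vehicle 18, vehicle 19 or vehicle 20, and that of Serpinb9 (0.27 to 0.39, adjusted p up to 0.106) without hAMSC 8, hAMSC 16, vehicle 18 or vehicle 19. Of 21 matrix proteases, inhibitors and matrix genes, Vcan alone passed (0.136% of all genes were called higher); the median was 0.09, with set medians of -0.03 in A and 0.02 in B.

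Sqle, squalene epoxidase of sterol synthesis, rose. It was at 55.1, 53.1, 77.2 and 74.7 CPM with hAMSC and at 48.3, 45.9, 65.7 and 58.9 CPM with vehicle (log2 fold change 0.24, SE 0.043, adjusted p = 0.0279). Of the 24 tested genes of cholesterol synthesis and uptake, 1 rose, none fell and 23 did not pass, where 0.136% of all tested genes were called higher. Their median was 0.12 (0.09 in set A and 0.16 in set B), 21 of 24 were above 0 against 48.9% of all tested genes, and 10 of 24 had both hAMSC libraries above both vehicle libraries in each set, against 3.91% of all genes. Cyp51, a demethylase of sterol synthesis (0.17, adjusted p = 0.0942), and Insig1, which holds back the sterol-sensing machinery (0.19, adjusted p = 0.158), were among those 10 without passing.

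In the fatty acid list, Fads1, the delta-5 desaturase, rose. It was at 16.98, 18.3, 35.8 and 33.7 CPM with hAMSC and at 15.1, 14.0, 26.3 and 24.4 CPM with vehicle, which gave 0.37 (SE 0.069, adjusted p = 0.0343). It was the only one of 19 tested members to pass (0.136% of all genes were called higher), and the list's median was 0.06. Plin2, which coats lipid droplets, had 0.17 (adjusted p = 0.0867). The hAEC libraries, compared with the same vehicle libraries, gave 0.16 for Sqle, 0.30 for Fads1 and a median of 0.11 for the cholesterol list. The call of Sqle (0.21 to 0.27, adjusted p up to 0.123) was lost without hAMSC 8, hAMSC 16, vehicle 18 or vehicle 20, and that of Fads1 (0.32 to 0.42, adjusted p up to 0.152) without any of these, vehicle 17 or vehicle 19. With the endothelial marker level described below as a covariate, Fads1 had 0.25 (adjusted p = 0.137).

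Gstp1, Nqo1 and Gsta1, enzymes of detoxification, fell. Gstp1, glutathione S-transferase pi, was at 669, 645, 1206 and 1184 CPM with hAMSC and at 803, 813, 1460 and 1395 CPM with vehicle. It fell by 0.28 on the log2 scale (SE 0.033, adjusted p = 0.00206), with 0.30 and 0.26 as the falls within sets A and B. Nqo1, the quinone reductase that is a standard NRF2 target, was at 228, 217, 506 and 479 CPM with hAMSC and at 286, 279, 578 and 553 CPM with vehicle. It fell by 0.27 (SE 0.039, adjusted p = 0.00622). The change was -17.5% for Gstp1 and -17.2% for Nqo1, and within each set the hAMSC and vehicle libraries did not overlap. Gsta1, an alpha-class glutathione transferase, fell by 0.23 (SE 0.044, adjusted p = 0.0343), from 98.9, 91.8, 216 and 205 CPM with vehicle to 78.4, 74.4, 187 and 191 CPM with hAMSC. Glutathione transferases occur as near-identical copies, so the share of reads given to Gsta1 and Gstp1 is uncertain.

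Slc48a1, a haem transporter, fell, while Hmox1 did not pass. Slc48a1, whose protein carries haem out of the phagolysosome, was at 500, 470, 630 and 604 CPM with hAMSC and at 584, 553, 708 and 683 CPM with vehicle, a fall of 0.20 (SE 0.036, adjusted p = 0.0323). Hmox1, haem oxygenase, was at 2185, 2186, 2509 and 2395 CPM with hAMSC and at 2676, 2737, 2617 and 2638 CPM with vehicle. All 4 hAMSC values were below all 4 vehicle values, yet the gene did not pass (-0.20, SE 0.044, adjusted p = 0.0867); within set A alone it passed (-0.31, adjusted p = 0.0309) and within set B it did not (-0.10, adjusted p = 0.600). The difference between the sets was 0.21 (adjusted p = 0.310). Of 20 tested genes of haem clearance and iron handling, Cd163 rose (0.136% of all tested genes were called higher) and Slc48a1 fell (0.0716% were called lower), 18 did not pass, and the median was 0.02.

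Of the 24 tested NRF2 antioxidant genes, 3 fell (Gstp1, Nqo1 and Slc48a1), where 0.0716% of all tested genes were called lower, none rose and 21 did not pass. The median was -0.08 (-0.09 in set A, -0.10 in set B), 21 of 24 were below 0, against 51.1% of all tested genes, and 9 of 24 had both hAMSC libraries below both vehicle libraries in each set, against 4.52%. This list too was drawn up with earlier results of these data known, so its counts are a description only. Among the members that did not pass were Sqstm1, the autophagy adaptor (-0.17, adjusted p = 0.0833), Gclm, a subunit of the enzyme that makes glutathione (-0.17, adjusted p = 0.153), Blvrb, biliverdin reductase B (-0.15, adjusted p = 0.126), and Slc7a11, the cystine transporter (0.40, adjusted p = 0.410). Nfe2l2, which encodes NRF2 itself, had 0.04 (adjusted p = 0.780). With 1 library left out at a time, the calls of Gstp1 (-0.29 to -0.26) and Nqo1 (-0.30 to -0.24) stood in all 8 fits. The call of Slc48a1 (-0.22 to -0.18, adjusted p up to 0.170) was lost without hAMSC 8, hAMSC 16 or any vehicle library, and that of Gsta1 (-0.26 to -0.20, adjusted p up to 0.157) without any library but hAMSC 15.

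Promoters from RefSeq (build GRCr8, 250 bases before to 50 after the start site) were found by symbol for 16 of the 29 called genes, and 3 of genes that fell are shown because NRF2 binds the antioxidant response element, searched here as TGACNNNGC on both strands. Capitals mark a match. Gstp1 lies at chr1:210769656-210769955 on the minus strand with its match 61 bases before the start site. Sesn2 lies at chr5:150005206-150005505 on the minus strand with its match 40 bases before the start site. Nqo1 lies at chr19:52220218-52220517 on the minus strand, and these letters are not in its window.
Gstp1: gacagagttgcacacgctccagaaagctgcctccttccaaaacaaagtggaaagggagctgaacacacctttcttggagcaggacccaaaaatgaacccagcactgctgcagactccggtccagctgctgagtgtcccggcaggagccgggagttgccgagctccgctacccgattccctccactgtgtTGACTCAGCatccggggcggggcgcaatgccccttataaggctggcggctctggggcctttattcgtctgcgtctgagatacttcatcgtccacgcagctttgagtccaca
Sesn2: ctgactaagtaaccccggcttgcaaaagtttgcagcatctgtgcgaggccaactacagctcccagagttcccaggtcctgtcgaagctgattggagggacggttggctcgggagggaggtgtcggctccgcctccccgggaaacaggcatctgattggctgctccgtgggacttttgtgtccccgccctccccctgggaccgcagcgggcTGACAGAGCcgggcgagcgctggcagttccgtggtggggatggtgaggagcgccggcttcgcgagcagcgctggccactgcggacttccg
Nqo1: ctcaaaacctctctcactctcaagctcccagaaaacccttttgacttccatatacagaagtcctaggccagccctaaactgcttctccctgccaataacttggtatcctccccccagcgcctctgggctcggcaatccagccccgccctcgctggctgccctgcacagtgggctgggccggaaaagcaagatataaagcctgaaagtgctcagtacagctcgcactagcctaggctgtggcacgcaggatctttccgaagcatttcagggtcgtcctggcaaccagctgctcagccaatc

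The element occurred in 12.2% of the 27457 promoters of this length. Among the called genes with a promoter, 3 of 6 that fell held it (Gstp1, Sesn2 and Gsta1, in Gsta1 after the start site), and 2 of 10 that rose (Cd38 and Man1a1). It was present in 6 of 20 promoters of the NRF2 list. The core of the sterol regulatory element, CACCCCAC, was present in 2.57% of all promoters and in 1 of 17 of the cholesterol list (Ebp). The core of the lysosomal CLEAR element, TCACGTGA, occurred in 0.867% of all promoters and in none of the called genes with a promoter. These are matches of letters, not measured binding.

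Sesn2, Ulk1, Pink1, Pc and Slc9a3r2 were the other genes that fell. Sesn2, a stress-induced sensor of leucine that restrains mTORC1, was at 93.5, 92.1, 59.8 and 56.2 CPM with hAMSC and at 109, 109, 67.4 and 71.7 CPM with vehicle (-0.25, SE 0.043, adjusted p = 0.0279). Ulk1, the kinase that starts autophagy, was at 32.8, 30.1, 64.0 and 65.5 CPM with hAMSC and at 35.2, 36.1, 79.3 and 78.6 CPM with vehicle (-0.24, SE 0.043, adjusted p = 0.0323). Pink1, the kinase that marks damaged mitochondria, was at 46.9, 45.3, 235 and 246 CPM with hAMSC and at 52.4, 52.9, 298 and 288 CPM with vehicle (-0.24, SE 0.040, adjusted p = 0.0278). In all of these the hAMSC libraries were the lower ones in each set, with changes of -15.1% to -15.7%.

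Pc, pyruvate carboxylase of mitochondria, fell by 0.27 (SE 0.039, adjusted p = 0.00650), from 40.3, 37.6, 189 and 181 CPM with vehicle to 33.3, 31.4, 154 and 153 CPM with hAMSC. Slc9a3r2, a scaffold protein that binds ion exchangers, fell by 0.40 (SE 0.057, adjusted p = 0.00622), from 28.3, 30.6, 40.5 and 45.5 CPM to 23.4, 20.9, 34.0 and 31.9 CPM. The calls of Pc (-0.29 to -0.24) and Slc9a3r2 (-0.43 to -0.36) stood in all 8 fits that left out a library. Those of Pink1 (-0.26 to -0.22, adjusted p up to 0.0984) and Ulk1 (-0.27 to -0.22, adjusted p up to 0.155) were lost without hAMSC 8, hAMSC 16 or any vehicle library, and that of Sesn2 (-0.27 to -0.22, adjusted p up to 0.110) without hAMSC 8, hAMSC 16, vehicle 17, vehicle 18 or vehicle 20.

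Of 30 tested genes of the unfolded protein and amino acid response, Sesn2 fell (0.0716% of all tested genes were called lower), none rose and 29 did not pass; the median was -0.03 and 13 were above 0. In this list 8 of 30 had hAMSC below vehicle without overlap in both sets, against 4.52% of all tested genes. They included, besides Sesn2, genes that ATF4 drives when amino acids are short: Chac1 (-0.41, adjusted p = 0.0639), Trib3 (-0.26, adjusted p = 0.176), Asns, asparagine synthetase (-0.17, adjusted p = 0.111), and Atf4 itself (-0.14, adjusted p = 0.112). Of the chaperones, Hspa5 (0.10, adjusted p = 0.429) and Calr (0.0037, adjusted p = 0.989) are given as examples. In the other direction, 2 of 30 had hAMSC above vehicle without overlap in both sets, against 3.91% of all tested genes. The list median was -0.06 in set A and 0.02 in set B, with 10 and 18 of 30 above 0.

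The other called genes all rose. Gda, guanine deaminase, was at 212, 215, 62.4 and 55.3 CPM with hAMSC and at 188, 177, 38.3 and 41.4 CPM with vehicle (0.38, SE 0.065, adjusted p = 0.0279). Mcoln2, an ion channel of endosomes and lysosomes, rose by 0.30 (SE 0.055, adjusted p = 0.0345), and Zfat, a zinc finger regulator, by 0.26 (SE 0.048, adjusted p = 0.0323). Man1a1 trims mannose from N-glycans and rose by 0.25 (SE 0.048). Ptpn1, a tyrosine phosphatase, rose by 0.22 (adjusted p = 0.0341); it and 2 features without an established symbol (LOC681341, 0.29, and ENSRNOG00000058094, 0.29) fell outside the rule for named genes and were added after their values were seen. The calls of these genes were each lost in 4 to 6 of the 8 fits that left out a library, with adjusted p up to 0.166, while their log2 fold changes stayed between 0.19 and 0.43. The call of Gda was lost without hAMSC 16, vehicle 18, vehicle 19 or vehicle 20. Mcoln2 and Man1a1 lost theirs without hAMSC 8, hAMSC 16 or any vehicle library, Zfat without hAMSC 8, hAMSC 16, vehicle 17, vehicle 18 or vehicle 20, and Ptpn1 without hAMSC 7, hAMSC 8, hAMSC 16, vehicle 18, vehicle 19 or vehicle 20. LOC681341 lost its call without hAMSC 8 or any vehicle library, and ENSRNOG00000058094 without hAMSC 8, hAMSC 16, vehicle 17, vehicle 18 or vehicle 19.

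The remaining lists held no called gene. Of 25 interferon response genes 8 were above 0, against 48.9% of all tested genes, with medians of 0.07 in set A and -0.14 in set B. Of 29 cell cycle genes 26 were above 0, with a median of 0.10, and with set medians of -0.01 in A and 0.21 in B; no member passed the test of a difference between the sets. Top2a, a topoisomerase of dividing cells, had the smallest p among them (0.42, adjusted p = 0.287). The medians of the p53 targets (16 genes) and of the prostanoid and leukotriene genes (20 genes) were -0.09 and -0.10. Those of the LXR targets, lysosome, antigen presentation, complement, glycolysis and hypoxia, immediate early and TGF-beta lists lay between -0.02 and 0.03. Some members had larger values in both directions without passing. In the LXR list, Lpl had 0.38 (adjusted p = 0.0903) and Apoe -0.26 (adjusted p = 0.126), with set medians of 0.04 in A and -0.08 in B. In the TGF-beta list, Tgfbr3 had 0.76 (adjusted p = 0.127) and Tgfbi -0.28 (adjusted p = 0.121). In the immediate early list, Nr4a2 had 0.50 (adjusted p = 0.126) and Fosl1 -0.46 (adjusted p = 0.154).

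**Figure D3:**
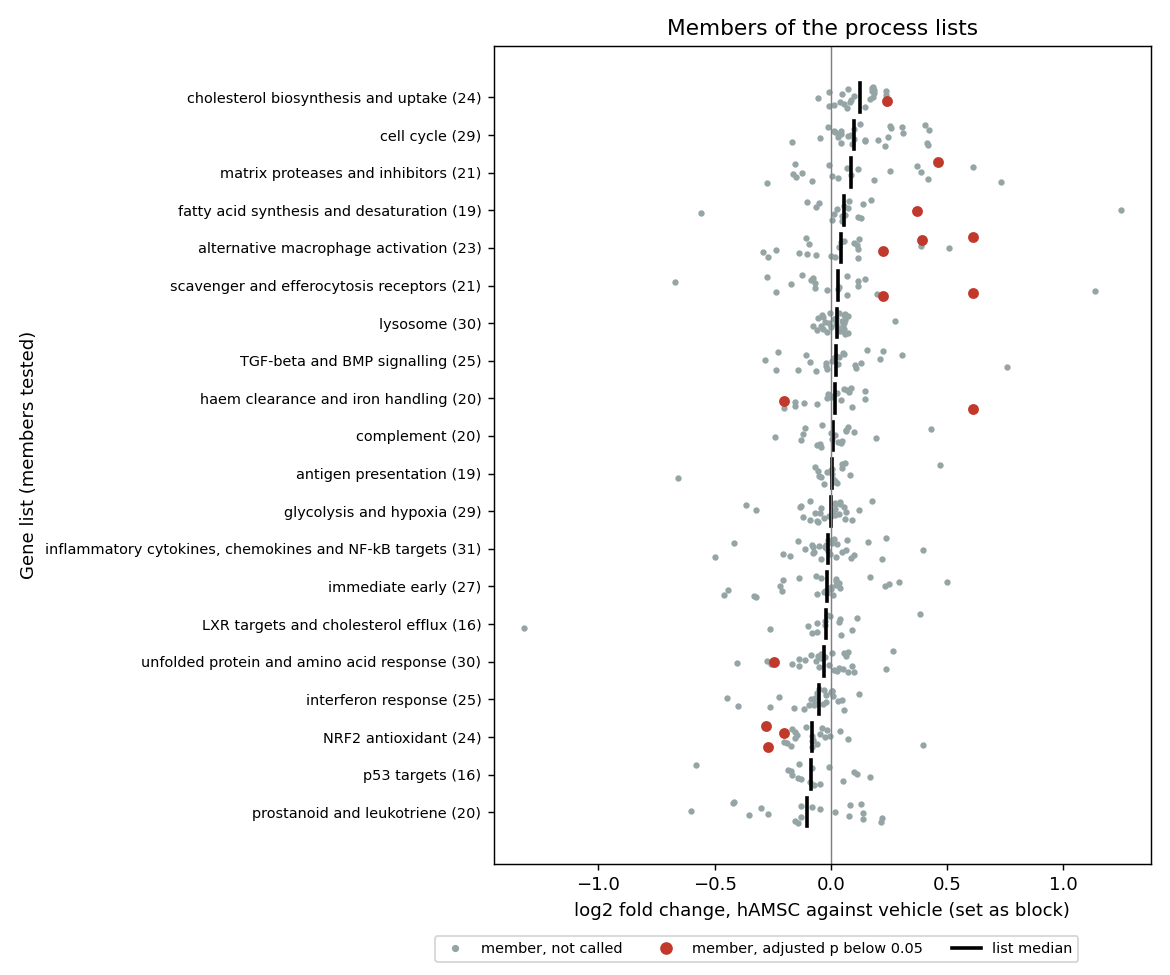
Log2 fold change of hAMSC against vehicle with the set as a block (horizontal axis) for each tested member of the 20 process lists, with the number tested in brackets; red points passed the test and black bars are list medians. The cholesterol list has the highest median (0.12) and the NRF2 list has 3 called members, all below 0.

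Of the 19 rises, 14 had the larger log2 fold change in set B, and 17 of 19 had their higher level in set A, where 50.7% of all tested genes did; of the 10 falls, 9 had their higher level in set B, against 49.3%. No called gene passed the test of a difference between the sets. With the spread shared but each set fitted separately, 11 genes passed in set A (0.0787%; 5 higher, 6 lower) and 134 in set B (0.959%; 113 higher, 21 lower), with 2 in common. Of the 29 genes called over both sets, 4 passed in set A and 18 in set B. Of the 134 set B calls, 78 had the same sign in set A, and of the 11 set A calls, 9 had the same sign in set B, where 50.7% of all tested genes had one sign in both. The count in set A was 2 without hAMSC 7, 19 without hAMSC 8, 50 without hAMSC 15 or hAMSC 16, 3 without vehicle 17, 0 without vehicle 18 and 1 without vehicle 19. The count in set B was 54 without hAMSC 15, 47 without vehicle 19 and 48 without vehicle 20.

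**Figure D4:**
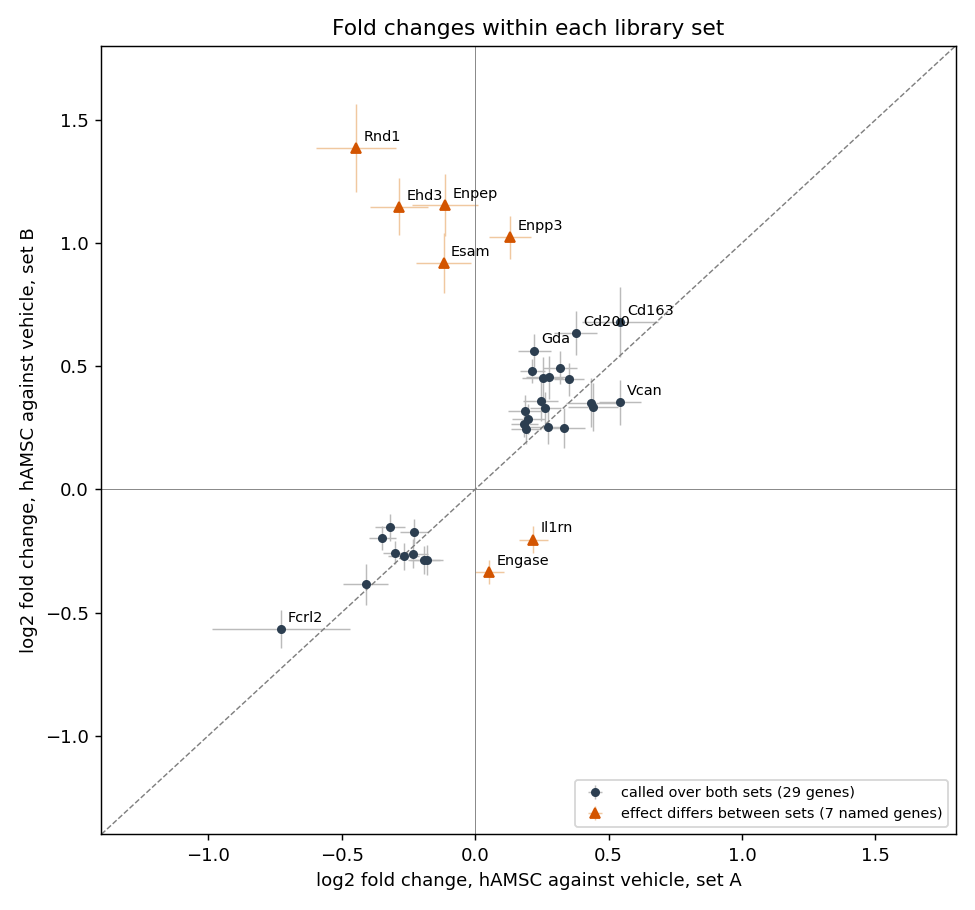
Log2 fold change of hAMSC against vehicle within set A (horizontal axis) and within set B (vertical axis), with SE bars and the line of equal change. The 29 called genes (circles) lie in the quadrants of equal sign; Rnd1, Ehd3, Enpep, Enpp3 and Esam (triangles) lie high in set B alone, and Il1rn and Engase below 0 in set B.

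Of 20 tested endothelial markers, Fcgr2b was called over both sets, 19 were above 0 and the median was 0.28; in set A 8 were above 0 with a median of -0.05, and in set B all 20 with a median of 0.50 (48.4% of all tested genes were above 0 in each set). Within set B 7 of the 20 passed, all higher (against 0.809% of all genes), and within set A none; 2 of the 20 (Ehd3 and Esam) passed the test of a difference between the sets. The summed level of the 19 markers other than Fcgr2b, none of them at 0, was 735 and 893 CPM with hAMSC against 836 and 880 CPM with vehicle in set A. In set B it was 605 and 532 CPM against 436 and 446 CPM. The mean log2 CPM of these 19 markers, not their sum, was then added to the model as a covariate, an analysis chosen after seeing the data. With it, 12 of the 29 genes stayed past the threshold, among 39 in all. Cd200 (0.46, adjusted p = 0.0207), Vcan (0.52), Pcsk1 (0.38), Cd200r1 (0.47), Fcgr2b (0.25, adjusted p = 0.0424), Gstp1 (-0.30) and Nqo1 (-0.32) were among the 12. Cd163 (0.52, adjusted p = 0.0824), Msr1 (0.22, adjusted p = 0.0677), Ccl6 (0.38, adjusted p = 0.0741) and Fcrl2 (-0.55, adjusted p = 0.105) were not, and neither were the other 13, among them Fads1, whose log2 fold change went from 0.37 to 0.25 (adjusted p = 0.137), and Mcoln2, from 0.30 to 0.23 (adjusted p = 0.105).

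Whether the difference between hAMSC and vehicle differed between the sets was itself tested, and 28 genes passed (0.2%), 24 with the larger value in set B (0.172%) and 4 in set A (0.0286%), with 1378 at an unadjusted p below 0.05. Ehd3, a membrane-trafficking gene of the endothelial list, was at 23.9 and 27.6 CPM with hAMSC against 29.7 and 33.0 CPM with vehicle in set A, and at 19.9 and 17.96 against 8.40 and 8.69 CPM in set B. Its log2 fold change was -0.29 in set A and 1.15 in set B (difference 1.43, SE 0.158, adjusted p = 0.00325). Esam, an adhesion molecule of endothelium and platelets, had -0.12 and 0.92 (adjusted p = 0.0173). Rnd1 had -0.45 and 1.39 (adjusted p = 0.0173), and the ectoenzymes Enpp3 (0.13 and 1.02, adjusted p = 0.0133) and Enpep (-0.11 and 1.15, adjusted p = 0.0173) were likewise higher with hAMSC in set B. Il1rn, the interleukin-1 receptor antagonist, went the other way, with 0.22 in set A and -0.20 in set B (adjusted p = 0.0391). The part of the endothelial markers in these differences was not tested. The count of 28 was 15 without hAMSC 7, 132 without hAMSC 8, 6 without hAMSC 15, 158 without hAMSC 16, 4 without vehicle 18, 0 without vehicle 19 and 2 without vehicle 20.

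**Figure D5:**
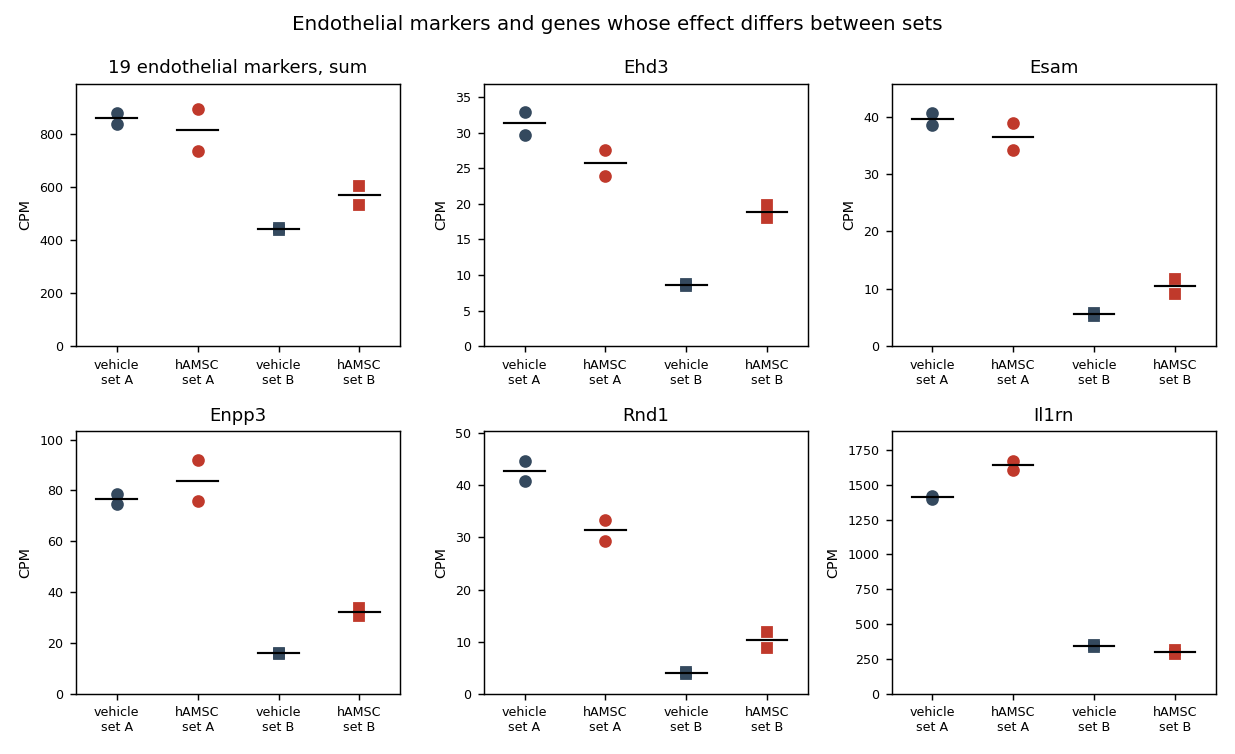
CPM (vertical axis, from 0) in each of the 8 libraries of the 19 endothelial markers summed (Fcgr2b left out) and of 5 genes whose difference between hAMSC and vehicle differed between the sets; points are libraries and bars the mean of 2. In set B the hAMSC libraries lie above vehicle for the sum, Ehd3, Esam, Enpp3 and Rnd1, and below it for Il1rn.

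The hAEC libraries offer a second co-culture. Compared with the same vehicle libraries, they gave no called gene (0%) by the same edgeR test, with 781 genes at an unadjusted p below 0.05. Without any difference, a share of about 0.05 of all tested genes would be expected there. Because the vehicle libraries are shared, the values are only set side by side. Of the 29 genes called with hAMSC, 27 had the same direction with hAEC. In the NRF2 list, 3 of 24 members were above 0 with hAMSC and 3 with hAEC. Against vehicle, Cd163 had 0.61 with hAMSC and 0.14 with hAEC, Cd200 0.50 and 0.15, Vcan 0.46 and 0.02, and Fcgr2b 0.35 and 0.0027. Cd200r1 had 0.39 and 0.26, Gstp1 -0.28 and -0.11, and Nqo1 -0.27 and -0.15.

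The direct test of hAMSC against hAEC called 3 genes (0.0215%), all higher with hAMSC, and all 3 were among the 29: Vcan (0.45, SE 0.063, adjusted p = 0.0219), Pcsk1 (0.32, SE 0.043, adjusted p = 0.0198) and Fcgr2b (0.35, SE 0.053, adjusted p = 0.0434). In all, 881 genes were at an unadjusted p below 0.05, these 3 included. Cd200 (0.35, adjusted p = 0.0779) and Cd163 (0.47, adjusted p = 0.135) did not pass, so a difference between the co-cultures was not shown for them. The count of 3 depends on single libraries: no gene passed without hAMSC 8 or without hAMSC 15, 1 passed without hAMSC 16, 5 without vehicle 19 and 51 without hAMSC 7. The hAEC libraries were not left out in turn.

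The number of genes called against vehicle depended strongly on single libraries and on the test. It was 59 without hAMSC 7, 13 without hAMSC 8, 150 without hAMSC 15, 9 without hAMSC 16, 9 without vehicle 18, 12 without vehicle 19 and 11 without vehicle 20, and DESeq2 called 154. Each of the 29 genes kept its direction under all 24 other settings. Since all 29 were already apart without overlap in both sets, this describes the called genes and does not support them. Whichever of the hAMSC and vehicle libraries was removed, 8 stayed past the threshold: Cd200, Pcsk1, Vcan, Slc9a3r2, Nqo1, Fcrl2, Gstp1 and Pc. Removal of an hAEC library was not tested. With the 8 hAMSC and vehicle libraries fitted alone, 6 of the 29 passed (Cd200, Pcsk1, Vcan, Ccl6, Fcrl2 and Gstp1), and Nqo1 (adjusted p = 0.0628), Slc9a3r2 (adjusted p = 0.0543) and Pc (adjusted p = 0.0543) did not.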

How the data were processed

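Polyadenylated RNA of 12 libraries (4 hAEC, 4 hAMSC, 4 vehicle) was measured; per the labels' protocols, RNA was purified with RNAqueous-Micro and sequenced from TruSeq libraries that keep the strand. The authors deposited 1 file per library, whose values are expected counts for each gene, per the file headers. The submitters' processing notes name RSEM, STAR, Trim Galore, FastQC and limma, and the builds Rnor_6.0 and rn6. Their versions and the strand setting of the counting are not given, so reads of overlapping or antisense genes may not be separable. Here the expected counts, rounded to whole numbers, entered edgeR 4.0.16 under R 4.3.3 (filterByExpr by group and set, TMM factors 0.973 to 1.03, robust quasi-likelihood fit of all 12 libraries with set and group, two-sided, Benjamini-Hochberg, threshold 0.05). Sets were fitted as 6 group-by-set cells for the within-set values and for the difference between sets. CPM used TMM-scaled totals. The files list 32623 genes, 11932 of them at 0 throughout; no 2 libraries of a group and set agreed within sampling noise.

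The members, the gene lists and the comparison were chosen with earlier results of these data known. Genes named are the 15 largest rises and falls and the 10 smallest p among called genes whose mean reached 5 CPM and whose symbol is established, up to 3 genes of smallest p per process list and 2 per marker list, and 5 per direction for the difference between sets. Not all of the list genes chosen in this way are given above. Other list members are named as examples. Of 3 symbols with several rows, the row of highest mean count was used. The script was tested on simulated counts with changes put into the hAMSC libraries. It called 36 of 68 genes changed by 0.3 on the log2 scale, 57 of 66 changed by 0.5 and 65 of 66 changed by 1. It also called 13 genes that had not been changed. Alternatives were other scalings, filters, DESeq2 1.42.0, limma 3.58.1 voom, a fit that is not robust, fewer libraries, no set term, each hAMSC or vehicle library left out and 2 marker covariates.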

Additional observations from a re-analysis of the deposited data

Results flagged for a closer look

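In 28 genes the difference between hAMSC and vehicle differed between the sets by the edgeR test, and 7 of them were named by the rule. Their differences (set B minus set A, log2 scale) were 1.43 in Ehd3, 0.89 in Enpp3, 1.27 in Enpep and 1.83 in Rnd1. Esam had 1.04, Il1rn -0.42 and Engase, a glycosidase of the cytosol, -0.39. Engase was at 230 and 231 CPM with hAMSC against 289 and 293 CPM with vehicle in set B, and at 30.5 and 30.8 against 28.8 and 30.3 CPM in set A (adjusted p = 0.0437). In set B the summed endothelial markers were higher with hAMSC as well; the part of those cells in the 7 differences was not tested.

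In 3 named genes 1 library stood far from the other 3 of its group. Pla2g4a, a phospholipase that frees arachidonic acid, was at 61.2 CPM in hAMSC 8 and at 69.5 to 70.6 CPM in the other hAMSC libraries. Lta4h, leukotriene A4 hydrolase, was at 337.8 CPM in vehicle 17 and at 298 to 304 CPM in the other vehicle libraries. Ttr, a hepatocyte gene, was at 0.584 CPM in hAMSC 8 and at 0.0574 to 0.110 CPM in the others. The criterion was the 95% critical value of Dixon's test, which by its construction chance passes in about 1 of 20 groups, and many genes were looked at. None of the 3 genes passed the test of hAMSC against vehicle.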

How the results depend on the processing

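The count of 29 (19 higher, 10 lower) became 52 (36 and 16) with no expression filter, 154 (93 and 61) with DESeq2, 12 (6 and 6) with a fit that is not robust, 6 (4 and 2) with the 8 libraries alone, 83 (67 and 16) with set A alone, 114 (92 and 22) with set B alone and 66 (44 and 22) with the hepatocyte marker level as covariate, the last chosen after seeing the data. With the group alone in the model edgeR called 0 genes, with 153 at an unadjusted p below 0.05. limma voom called 35 in all with 16 lower, and 43 with sample quality weights, 19 of them lower. Leaving out 1 hAMSC or vehicle library gave 9 to 150 genes, 3 to 123 higher and 5 to 27 lower. The genes whose effect differed between sets numbered 28, and 103 with DESeq2, 4 with limma voom and 0 to 158 without 1 library. Against hAEC the count of 3 became 83 with DESeq2 and ran from 0 to 51 without 1 hAMSC or vehicle library. What leaving out an hAEC library would change was not tested. Within set A, 11 became 125 with DESeq2 and 0 to 50 without 1 library; within set B, 134 became 52 with limma voom and ran from 47 to 167. The cause of these shifts was not tested.

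Of 91 genes named as called or as list members, 6 changed sign in 1 setting, none of them called. These were Fasn (-0.0044), C3ar1 (0.0023) and Sesn1 (0.019) with set A alone and Fbln2 (0.037) with set B alone. The others were Gbp2 (-0.0095) with the endothelial covariate and Ttr (0.21) with the hepatocyte covariate. Klf1 and the genes named for a difference between the sets were not among the 91. Of these, Ehd3, Rnd1, Esam, Enpep, Engase and Klf1 had opposite signs within set A and over both sets. Il1rn had opposite signs within set B and over both sets, and Enpp3 had the same sign in each. The medians of the cholesterol list (0.09 to 0.17) and of the NRF2 list (-0.11 to -0.06) kept their sign in all 24 settings. In 4 settings the cholesterol median moved by at least its spread between libraries of a group and set. The sign also held for the fatty acid (0.04 to 0.08), p53 (-0.14 to -0.03) and TGF-beta (0.003 to 0.05) lists. It held as well for the stellate (-0.34 to -0.02) and lymphocyte (0.01 to 0.24) lists. Every other list changed the sign of its median in at least 1 setting, and glycolysis and hypoxia did so in 9. The sign changed in 5 settings for haem clearance, 4 for scavenger receptors and 3 for the inflammatory list. It changed in 2 for the interferon list and in 1, the endothelial covariate, for alternative macrophage activation (-0.01). The median of the cell cycle list reached -0.01 with set A alone, and that of the endothelial list -0.05.

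No paired analysis was possible because the groups share no replicate numbers. What greater or lower depth would change was not tested.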
